A study of Mus musculus with 18 samples.

Results

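The alcohol dehydrogenases (Adh), aldehyde dehydrogenases (Aldh) and aldo-keto reductases (Akr) of the mouse were followed through liver development. A probe set belonged to the set when the array annotation gave it a sole gene symbol that began with Adh, Aldh or Akr followed by a digit. This took in 42 genes on 71 probe sets, of 18193 genes and 45101 probe sets in all. There were 7 Adh genes on 9 probe sets, 20 Aldh genes on 36 and 15 Akr genes on 26. A further 3 probe sets that listed several symbols were left out.

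RNA of CD-1 mice, an outbred stock, was hybridised to 18 Affymetrix mouse genome arrays. Adult liver came from 10-week-old females and was measured on 2 arrays. Embryonic liver was measured at 6 stages with 2 arrays each, in daily steps between 10.5 and 14.5 days post conception (dpc), with a last stage of 16.5 dpc. Embryos without their livers, referred to as the rest of the embryo, were measured on 1 array at each of the first 3 stages and at 14.5 dpc. Each embryonic sample pooled at least 5 embryos, and no group was given a mutation or a treatment by its source name. The treatment text of the adult samples described a partial hepatectomy, whereas their titles and source names gave normal baseline liver, and they were taken as normal. Nothing said whether the 2 pools of a stage came from separate litters, so the spread between them may be technical.

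The 3 families share a chemistry, the transfer of hydride between a nicotinamide cofactor and an alcohol, aldehyde or ketone. Adh enzymes oxidise ethanol, retinol and other alcohols to aldehydes. Aldh enzymes carry aldehydes on to acids, among them retinal to retinoic acid (the Aldh1a group) and the aldehydes left by proline, lysine, valine and choline breakdown. Akr enzymes mostly run the other way and reduce aldehydes and ketones. The Akr1c group and Akr1d1 reduce steroids, and Akr1d1 acts in bile acid synthesis. In adult mammals the liver is the main site of ethanol oxidation, steroid reduction and retinoid storage, while in the embryo retinoic acid made locally by Aldh1a enzymes patterns many organs.

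Values are linear probe set intensities, and each gene was read from its probe set with the highest mean over all arrays. Before log2 differences were taken, intensities under 24.8 (the 20th percentile) were raised to that floor. A gene was tested when it exceeded 77.9, the 50th percentile, on at least 2 arrays of a fit, and was called at an adjusted p under 0.05 with a difference of at least 1 log2. All adjusted p-values are from limma, over all genes tested. The deposited values differed in form between tissues. Liver arrays held 1216 to 1535 values below 0 and no exact 0, with 99th percentiles of 1325 to 2935, whereas rest-of-embryo arrays held none below 0 and 35 to 41 exact zeros, with 99th percentiles of 5553 to 5953. The tissue comparison therefore sets 2 forms of values against each other. The lowest 99th percentile, 1325, was that of the first adult array, against 2285 on the second. The summed intensity of 7 hepatocyte markers was 40450 to 45480 in adult liver and 10490 to 10620, 19000 to 20220, 24960 to 28160, 31990 to 32640, 36760 to 38010 and 37810 to 38430 from 10.5 to 16.5 dpc, against 2006 to 12510 in the rest of the embryo. The sum of 8 heart muscle markers was 8953 to 16280 in 10.5 dpc liver and 1445 to 6355 at 12.5 dpc, against 254 to 410 at the other embryonic stages and 208 to 268 in adult liver. For 7 red cell markers the sum was 343 to 418 in adult liver and 1512 to 1980 in 10.5 dpc liver. It was 4662 to 6953 at 11.5 dpc, 17220 to 19510 at 12.5 dpc and 23650 to 23920 at 16.5 dpc. The part of red cell RNA in the differences between liver groups was not tested. In these bulk samples fewer cells of a type and less RNA per cell cannot be told apart.

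The members divided into genes read at every embryonic stage, genes whose signal grew in the embryonic liver, and genes read well only in adult liver. Of the 42 members, 38 entered the liver fit, and Adh6-ps1, Adh6b, Aldh1l2 and Aldh3a1 were too dim to be tested there. Between 16.5 and 10.5 dpc, 11 members rose and 0 fell, and the other 27 were not called, with 21 of 38 at an unadjusted p under 0.05. Over all 14127 genes tested, 10.4% were called higher and 6.98% lower, and 6147 had an unadjusted p under 0.05 in limma. The members called were 1 of 5 Adh, 6 of 18 Aldh and 4 of 15 Akr genes. The median log2 difference was 0.43 over the 38 members, against 0.053 over all genes. A change across any of the 6 embryonic stages was called for 16 members, against 19.6% of all genes. These were the same 11 genes with Adh6a, Akr1c18, Aldh9a1, Aldh16a1 and Aldh1a2.

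**Figure D1:**
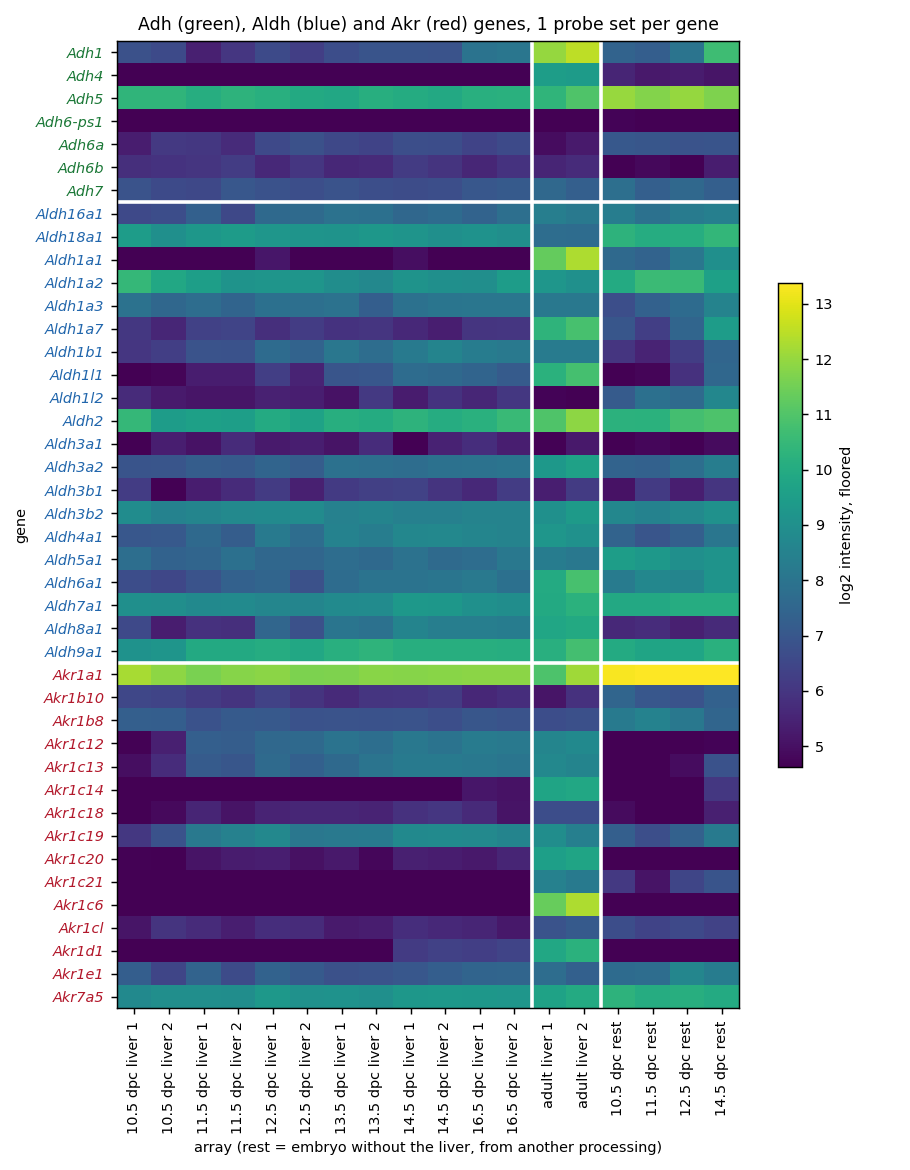
Log2 intensity, raised to the floor, of the 42 genes (rows, Adh in green, Aldh in blue, Akr in red) on the 18 arrays (columns). Embryonic liver runs by stage from the left, followed by adult liver and then the rest of the embryo, and dark cells lie at the floor of 24.8. Adh4 and Akr1c6 lie at the floor on all 12 embryonic liver arrays and are bright on both adult arrays.

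Adult liver differed from embryonic liver in more members. Against the mean of the 6 embryonic stages, 20 members were called higher and 2 lower in adult liver, where 11.9% of all genes were called higher and 23.7% lower. The calls were 2 higher and 1 lower of 5 Adh genes, 9 higher and 1 lower of 18 Aldh genes, and 9 higher and 0 lower of 15 Akr genes. The median was 1.14 log2 over the members tested and -0.21 over all genes. Of the 38, 8 passed the intensity filter only through the adult arrays, and so had to be higher there. They were Adh4, Akr1c6, Akr1c14, Akr1c18, Akr1c20, Akr1c21, Akr1cl and Aldh1a1. Among the other 30, 12 were higher and 2 lower, against 8.24% and 25.1% of the 13330 genes that passed on embryonic liver arrays. Against 16.5 dpc liver alone, 17 members were higher and 2 lower in adult liver, where 10.3% of all genes were higher and 22.8% lower. Among the 30 that passed on embryonic liver arrays, 9 were higher and 2 lower, where 7.01% and 24.2% of such genes were. Without adult array 1 the calls against all embryonic stages and against 16.5 dpc numbered 14 and 11, and without adult array 2 they numbered 13 and 9, with 30 members tested each time. Calls for genes with many arrays at the floor have SE and adjusted p values that are too small, since arrays at the floor add no spread.

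**Figure D2:**
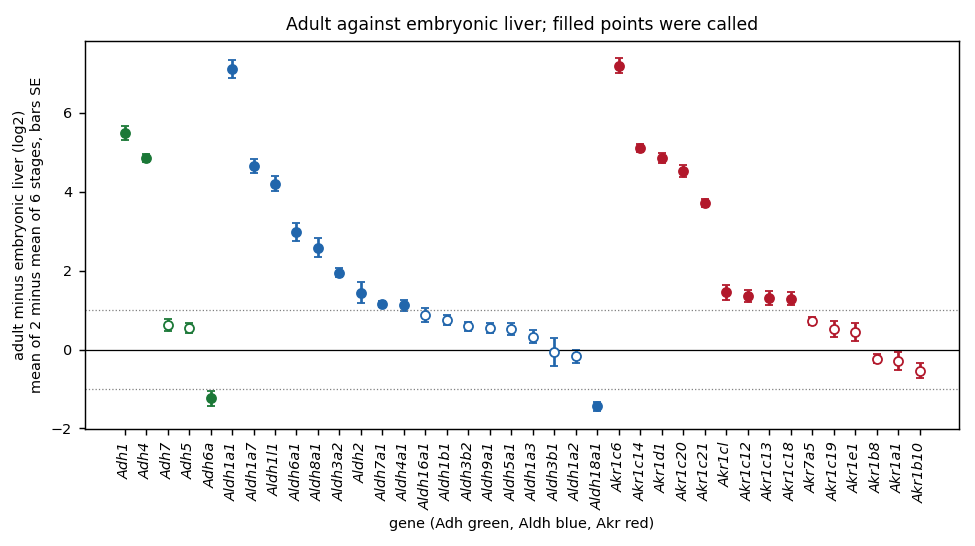
Difference between adult liver (2 arrays) and the mean of the 6 embryonic stages (12 arrays) in log2 for each tested gene, with bars of 1 SE, Adh in green, Aldh in blue and Akr in red. Filled points were called, and dotted lines mark 1 log2 in each direction. The 20 genes above the upper line and the 2 below the lower line (Adh6a and Aldh18a1) were called.

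The steroid reductases of the Akr1c group lie side by side on chromosome 13, and most of them followed one of 2 courses. In the order of the RefSeq annotation the genes read here run Akr1c14, Akr1c18, Akr1c13, Akr1c19, Akr1c12, Akr1c6, Akr1c20 and Akr1c21. The 3 in the middle, Akr1c13, Akr1c19 and Akr1c12, were read in embryonic liver from 11.5 dpc on and stood at 67.7%, 99% and 72.8% of their adult level at 16.5 dpc. Adult against 16.5 dpc liver gave 0.56 ± 0.24 log2 (SE; adjusted p = 0.0642) for Akr1c13, -0.0049 ± 0.28 log2 (SE; adjusted p = 0.994) for Akr1c19 and 0.46 ± 0.20 log2 (SE; adjusted p = 0.0789) for Akr1c12, none of them called. Akr1c14 on one flank and Akr1c6, Akr1c20 and Akr1c21 on the other stayed near the floor until 16.5 dpc and were read well only in adult liver. Akr1c18, between Akr1c14 and Akr1c13, followed neither course. It stayed under the filter on all embryonic liver arrays but stood at 38.4% to 59.2% of its adult level from 11.5 dpc on, and was called across the embryonic stages. Akr1c12 and Akr1c13 are close paralogs, known as aldo-keto reductases inducible by interleukin in mouse blood cells, and their probe sets may share transcripts. Their promoter windows from RefSeq (build GRCm38.p6, 250 bases before to 50 after the start) are shown beside those of Akr1c14 and Akr1c6, because these pairs mark the 2 courses. A promoter entry was matched for 33 of the 42 members and for 7 of these 8 Akr1c genes. Capitals mark the longest unbroken stretch that the windows of Akr1c12 (chr13:4279350-4279649, minus strand) and Akr1c13 (chr13:4190937-4191236, plus strand) have in common.
Akr1c12: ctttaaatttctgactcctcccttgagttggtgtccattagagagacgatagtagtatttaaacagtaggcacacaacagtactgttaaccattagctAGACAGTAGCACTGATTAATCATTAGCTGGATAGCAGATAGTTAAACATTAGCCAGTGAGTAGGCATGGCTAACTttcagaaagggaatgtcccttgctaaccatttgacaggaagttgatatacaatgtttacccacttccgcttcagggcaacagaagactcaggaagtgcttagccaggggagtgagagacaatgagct
Akr1c13: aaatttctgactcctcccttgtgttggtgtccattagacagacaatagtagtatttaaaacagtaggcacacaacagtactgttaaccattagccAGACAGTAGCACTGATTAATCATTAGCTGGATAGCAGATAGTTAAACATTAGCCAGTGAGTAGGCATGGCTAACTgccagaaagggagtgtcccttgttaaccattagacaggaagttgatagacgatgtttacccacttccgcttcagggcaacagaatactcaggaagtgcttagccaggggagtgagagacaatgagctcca
Akr1c14: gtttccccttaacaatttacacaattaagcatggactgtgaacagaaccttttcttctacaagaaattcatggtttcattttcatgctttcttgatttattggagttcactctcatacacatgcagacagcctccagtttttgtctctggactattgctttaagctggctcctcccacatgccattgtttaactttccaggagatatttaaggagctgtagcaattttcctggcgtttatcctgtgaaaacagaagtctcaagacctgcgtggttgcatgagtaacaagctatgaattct
Akr1c6: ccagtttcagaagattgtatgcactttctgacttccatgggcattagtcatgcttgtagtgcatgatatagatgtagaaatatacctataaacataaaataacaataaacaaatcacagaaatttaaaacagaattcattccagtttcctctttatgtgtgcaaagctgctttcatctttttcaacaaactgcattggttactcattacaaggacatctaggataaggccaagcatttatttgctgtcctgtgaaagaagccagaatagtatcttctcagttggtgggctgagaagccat
The window of Akr1c14 is chr13:4059341-4059640 and that of Akr1c6 is chr13:4434093-4434392, both on the plus strand. The stretch shared by Akr1c12 and Akr1c13 is 75 bases long, and 284 of 297 aligned positions were identical. For the other 20 pairs of the 7 windows the longest shared stretch was 7 to 15 bases. Among these, Akr1c19, which followed the course of Akr1c12 and Akr1c13, shared 10 bases with Akr1c12 and 15 with Akr1c13. Akr1c14 and Akr1c6 shared 10. Whether likeness of the windows goes with the courses was not tested.

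Akr1c12 read 25.8 and 42.1, 155 and 147, 195 and 195, 248 and 222, 283 and 249, and 313 and 288 on the pairs of arrays of the 6 stages from 10.5 to 16.5 dpc, and 388 and 437 in adult liver. The 10.5 dpc pair lay below all later pairs, and the adult pair lay above all embryonic arrays. Akr1c12 was higher at 16.5 than at 10.5 dpc by 3.19 ± 0.20 log2 (SE; adjusted p = 1.17e-06), the largest difference in this comparison over the brightest probe set of each member. Akr1c13 read 31.4 and 53.0, 143 and 125, 204 and 161, 195 and 255, 296 and 299, and 282 and 263 over the same stages and 421 and 385 in adult liver. At 16.5 dpc it exceeded 10.5 dpc by 2.74 ± 0.24 log2 (SE; adjusted p = 8.06e-06). Akr1c19 read 65.6 and 115, 289 and 359, 416 and 275, 291 and 305, 444 and 452, and 431 and 385 over the stages and 484 and 341 in adult liver, so that adult and embryonic arrays overlapped. It was higher at 16.5 than at 10.5 dpc by 2.23 ± 0.28 log2 (SE; adjusted p = 0.000101), and its adult level differed from the embryonic mean by only 0.52 ± 0.21 log2 (SE; adjusted p = 0.0488). Adult liver was above the embryonic mean by 1.35 ± 0.15 log2 (SE; adjusted p = 1.57e-05) for Akr1c12 and 1.32 ± 0.18 log2 (SE; adjusted p = 6.24e-05) for Akr1c13, which became 0.84 and 0.86 log2, under the size for a call, without the 10.5 and 12.5 dpc arrays.

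The 10.5 dpc arrays that form the low end of these courses were those with the high heart muscle sums, and between 10.5 and 16.5 dpc the hepatocyte sum also grew. Their part in the result was not tested. With the 10.5 and 12.5 dpc arrays left out, 16.5 dpc liver exceeded 11.5 dpc liver by 0.99 log2 for Akr1c12 (adjusted p = 0.000951), 1.03 for Akr1c13 (adjusted p = 0.0018) and 0.34 for Akr1c19 (adjusted p = 0.196). Of these, Akr1c13 alone was called. Of the 11 genes called between 16.5 and 10.5 dpc, 7 were called in that comparison, and Akr1c12, Akr1c19, Aldh3a2 and Aldh6a1 were not. Over all genes the calls also dropped, to 1221 in that comparison from 2457 between 16.5 and 10.5 dpc.

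The flanking genes other than Akr1c18 were read mainly in adult liver. Akr1c6, which encodes the hepatic 17-beta-hydroxysteroid dehydrogenase of the mouse, read 2635 and 5018 in adult liver, while all 12 embryonic liver arrays lay under the floor. Adult liver was at least 146-fold higher (adjusted p = 1.54e-10). Akr1c14, a 3-alpha-hydroxysteroid dehydrogenase, read 864 and 947 in adult liver and 35.5 and 33.5 at 16.5 dpc, the stage at which both arrays first exceeded the floor. Its adult difference was 5.11 ± 0.11 log2 (SE; adjusted p = 3.85e-11), which the floor shrinks, since 10 of 12 embryonic arrays lay at or under it. Akr1c20 read 757 and 864 in adult liver, against a lowest, median and highest of 19.1, 37.9 and 46.9 over the embryonic arrays. The difference was 4.52 ± 0.16 log2 (SE; adjusted p = 1.36e-09), and its other probe set was also higher in adult liver, by 2.14 log2. Akr1c21, a 3- and 17-alpha-hydroxysteroid dehydrogenase, read 356 and 299 in adult liver, and 11 of the 12 embryonic arrays lay at or under the floor. Its adult difference was 3.71 ± 0.11 log2 (SE; adjusted p = 4.28e-10).

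The remaining steroid reductases were called higher in adult liver too. Akr1d1, the steroid 5-beta-reductase of bile acid synthesis, read 938 and 1180 in adult liver. Its embryonic pairs read -13.2 and -23.9, 3.63 and -4.71, 18.8 and 0.776, 23.3 and 25.3, 71.2 and 80.7, and 76.4 and 86.1 from 10.5 to 16.5 dpc, so both arrays passed the floor from 14.5 dpc on. Its 16.5 dpc level was at least 3.27-fold higher than at 10.5 dpc, where both arrays lay under the floor (adjusted p = 1.43e-05). It was higher in adult than in embryonic liver by 4.85 ± 0.12 log2 (SE; adjusted p = 1.3e-10). Its level at 16.5 dpc was 7.67% of the adult level. Akr1c18, the 20-alpha-hydroxysteroid dehydrogenase that inactivates progesterone, was dim throughout, at 105 and 104 in adult liver against a lowest, median and highest of 18.1, 45.9 and 64.4 in embryonic liver. This was a difference of 1.29 ± 0.17 log2 (SE; adjusted p = 3.88e-05). Akr1cl, an Akr1c-like gene, read 117 and 137 in adult liver against 35.2, 47.7 and 61.7 in embryonic liver, a difference of 1.45 ± 0.19 log2 (SE; adjusted p = 5e-05). Of the 10 steroid reductases, 6 (Akr1c6, Akr1c14, Akr1c18, Akr1c20, Akr1c21 and Akr1cl) had passed the filter only through the adult arrays. Of the other 4, Akr1c12, Akr1c13 and Akr1d1 were called higher in adult liver and Akr1c19 was not, where 8.24% of all genes that passed on embryonic liver arrays were called higher.

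**Figure D3:**
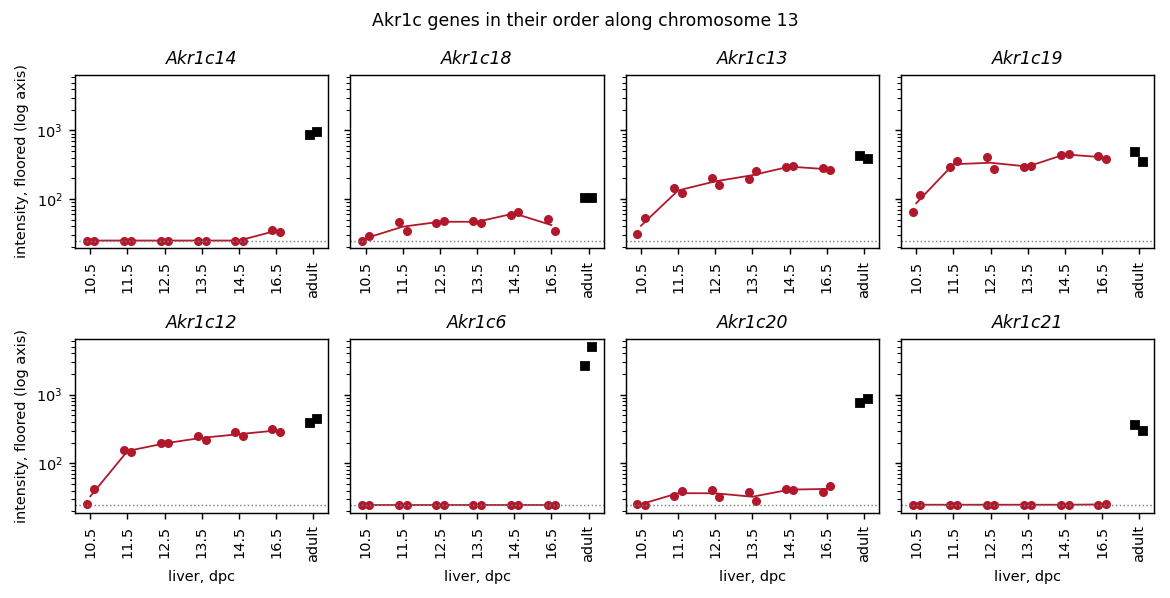
Intensity, raised to the floor and on a log axis, of the 8 Akr1c genes in their order along chromosome 13. Red points are the 2 arrays of each embryonic liver stage with a line through their geometric mean, black squares are adult liver, and the dotted line is the floor of 24.8. Akr1c13, Akr1c19 and Akr1c12 climb most between 10.5 and 11.5 dpc, whereas Akr1c14, Akr1c6 and Akr1c21 stay on or near it up to 16.5 dpc.

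Among the alcohol dehydrogenases, Adh1 and Adh4 were higher in adult liver and the broadly expressed Adh5 was not called. Adh1, the class I enzyme that oxidises ethanol and retinol, read 4059 and 5897 in adult liver. Its embryonic pairs read 112 and 95.8, 42.7 and 64.9, 97.3 and 77.1, 104 and 119, 119.6 and 116, and 253 and 268 from 10.5 to 16.5 dpc, so the 16.5 dpc pair lay above all earlier arrays and below both adult arrays. It was higher at 16.5 than at 10.5 dpc by 1.33 ± 0.23 log2 (SE; adjusted p = 0.00102) and higher in adult than in embryonic liver by 5.50 ± 0.18 log2 (SE; adjusted p = 7.29e-10). At 16.5 dpc Adh1 had reached 5.23% of its adult level. Adh4, the class II enzyme, read 729 and 697 in adult liver, and all 12 embryonic liver arrays lay under the floor. Adult liver was at least 28.7-fold higher (adjusted p = 4.42e-11).

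The other Adh genes moved less. Adh5, the class III enzyme that clears formaldehyde bound to glutathione, read 1323 and 1996 in adult liver against a lowest, median and highest of 936, 1121 and 1319 in embryonic liver. The difference, 0.55 ± 0.14 log2 (SE; adjusted p = 0.00457), was under the size needed for a call. Adh7, the class IV enzyme known for retinol oxidation in the stomach, read 192 and 156 against 93.1, 111 and 138, a difference of 0.63 ± 0.14 log2 (SE; adjusted p = 0.00272). Adh6a fell in adult liver, at 30.3 and 38.1 against a lowest, median and highest of 40.2, 88.4 and 112 in embryonic liver, a difference of -1.24 ± 0.19 log2 (SE; adjusted p = 0.000149). Both adult arrays lay below all 12 embryonic ones, but Adh6a was dim and was not called with the floor at the 40th percentile, at -0.59 log2. Adh6b and the pseudogene Adh6-ps1 stayed under the filter on all liver arrays.

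The 4 Aldh1a genes and Aldh8a1 did not move together. Aldh1a1 and Aldh1a7, which are close paralogs and neighbours on chromosome 19, were genes of adult liver, Aldh1a2 and Aldh1a3 were read at all stages, and Aldh8a1 grew in embryonic liver. Aldh1a1, the retinal dehydrogenase of many adult tissues, read 2541 and 5105 in adult liver, against a lowest, median and highest of -42.2, 7.33 and 35.5 in embryonic liver, with 9 of 12 arrays at or under the floor. The adult difference was 7.11 ± 0.22 log2 (SE; adjusted p = 6.01e-10). Aldh1a7, a rodent paralog with little activity on retinal, read 1291 and 1825 in adult liver and 41.1, 62.8 and 85.0 in embryonic liver, a difference of 4.65 ± 0.17 log2 (SE; adjusted p = 1.9e-09). Neither gene was called between 16.5 and 10.5 dpc. Aldh1a1 lay at the floor at both stages, and Aldh1a7 differed by 0.18 ± 0.22 log2 (SE; adjusted p = 0.593). Cross-hybridisation between the 2 paralogs was not tested.

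Aldh1a2, the main source of retinoic acid in the early embryo, was read at every stage and was highest at 10.5 dpc. Its pairs read 1424 and 947, 740.3 and 564, 588 and 583, 489 and 424, 563 and 508, and 492 and 714 from 10.5 to 16.5 dpc, and the adult arrays read 595 and 525. Both 10.5 dpc arrays lay above every other liver array. The difference between 16.5 and 10.5 dpc was -0.97 ± 0.22 log2 (SE; adjusted p = 0.00613), just under the size needed for a call. It was called lower without the second 10.5 dpc array or the second 16.5 dpc array, and after median centring or quantile normalization, at -1.04 to -1.26 log2. The mesenchyme marker sum was 3604 to 3704 at 16.5 dpc and 6183 to 7826 at 10.5 dpc, and the heart muscle sum moved the same way. Their part in the Aldh1a2 values was not tested. Between 16.5 and 11.5 dpc the Aldh1a2 difference was -0.12 log2 (adjusted p = 0.683). Adult and embryonic liver overlapped, with a difference of -0.18 ± 0.17 log2 (SE; adjusted p = 0.385).

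Aldh1a3, the third retinal dehydrogenase, read 279.9 and 280.4 in adult liver against a lowest, median and highest of 152, 234 and 268 in embryonic liver. Its adult difference was 0.33 ± 0.16 log2 (SE; adjusted p = 0.0966) and its difference between 16.5 and 10.5 dpc was 0.33 ± 0.21 log2 (SE; adjusted p = 0.272), neither of them called. Its probe sets disagreed, since a dimmer one was called lower at 16.5 than at 10.5 dpc, at -1.64 ± 0.35 log2 (SE; adjusted p = 0.00358), and higher in adult than in embryonic liver, at 1.84 ± 0.27 log2 (SE; adjusted p = 9.61e-05). Aldh8a1, known for the kynurenine pathway of tryptophan breakdown and for activity on 9-cis-retinal, read 94.4 and 40.8, 59.2 and 55.6, 183 and 112, 259 and 239, 381 and 335, and 333 and 317 from 10.5 to 16.5 dpc and 899 and 983 in adult liver. Aldh8a1 was higher at 16.5 than at 10.5 dpc by 2.39 ± 0.33 log2 (SE; adjusted p = 0.000227) and higher in adult than in embryonic liver by 2.59 ± 0.25 log2 (SE; adjusted p = 4.36e-06). The second probe set of Aldh8a1 gave 3.93 and 3.42 log2 for the same comparisons. At 16.5 dpc the gene stood at 34.6% of its adult level.

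**Figure D4:**
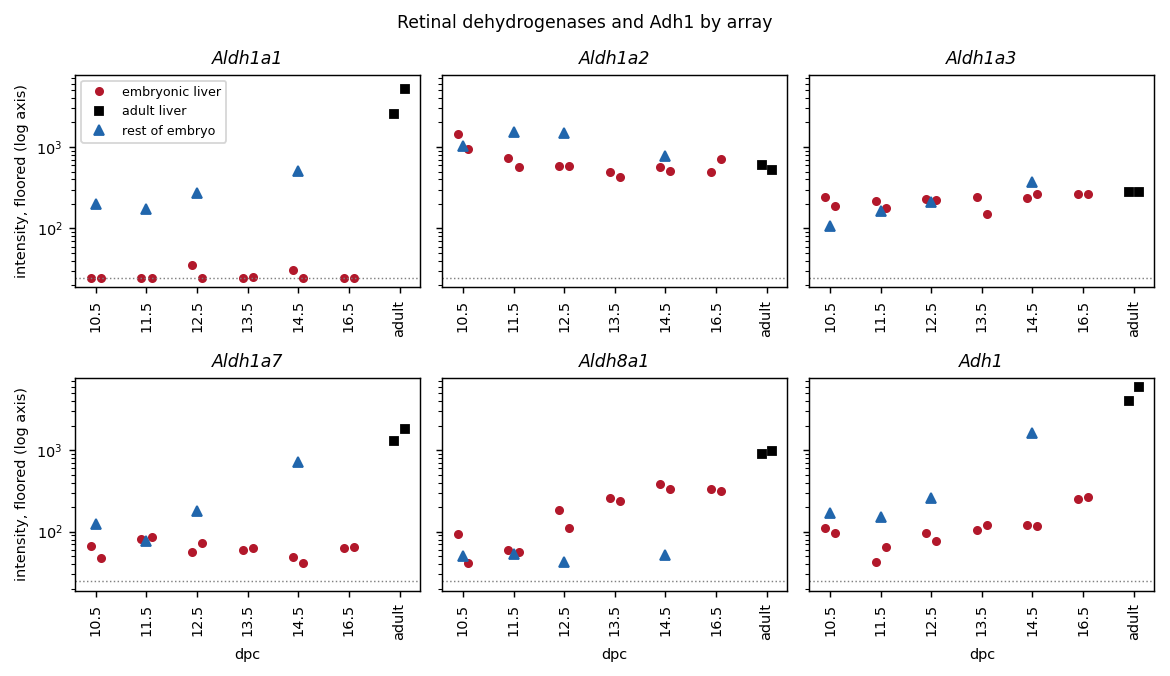
Intensity, raised to the floor and on a log axis, of Aldh1a1, Aldh1a2, Aldh1a3, Aldh1a7, Aldh8a1 and Adh1 by array. Red points are embryonic liver, black squares adult liver, blue triangles the rest of the embryo, and the dotted line is the floor of 24.8. Aldh1a1 is near the floor in embryonic liver but between 171 and 503 in the rest of the embryo, and Aldh1a7 and Adh1 are highest outside the adult liver in the 14.5 dpc rest-of-embryo array.

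Among the aldehyde-clearing enzymes, Aldh1b1 rose during embryonic development and Aldh2 and Aldh3a2 were higher in adult liver. Aldh1b1, a mitochondrial enzyme close to Aldh2, read 64.8 and 76.4, 118 and 115, 208 and 169, 272 and 215, 305 and 385, and 315 and 291 from 10.5 to 16.5 dpc and 308 and 312 in adult liver. It was higher at 16.5 than at 10.5 dpc by 2.11 ± 0.17 log2 (SE; adjusted p = 6.05e-06) and stood at 97.8% of its adult level at 16.5 dpc, so that adult and late embryonic arrays overlapped. Aldh2, the mitochondrial enzyme that clears acetaldehyde, read 2020 and 3825 in adult liver, against a lowest, median and highest of 717, 1047 and 1514 in embryonic liver. Its adult difference was 1.45 ± 0.26 log2 (SE; adjusted p = 0.000448). Other tested probe sets of Aldh2 gave 1.97 log2, called higher, and 0.85 log2, not called. Aldh3a2, the fatty aldehyde dehydrogenase, read 121 and 124 in 10.5 dpc liver, 246 and 254 in 16.5 dpc liver and 633 and 789 in adult liver. It was higher in adult than in embryonic liver by 1.95 ± 0.11 log2 (SE; adjusted p = 4.32e-08) and higher at 16.5 than at 10.5 dpc by 1.03 ± 0.14 log2 (SE; adjusted p = 0.000203). The second of these was under 1 log2, and so not called, after median centring (0.91) and quantile normalization (0.92).

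The other clearance genes were not called between adult and embryonic liver. Aldh3b2 differed by 0.59 ± 0.12 log2 (SE; adjusted p = 0.00108), Aldh16a1, a family member that lacks the usual catalytic residue in mammals, by 0.87 ± 0.18 log2 (SE; adjusted p = 0.0011), and the dim Aldh3b1 by -0.070 ± 0.36 log2 (SE; adjusted p = 0.872). A second probe set of Aldh16a1 gave -0.14 log2, not called. Between 16.5 and 10.5 dpc it gave 0.037 log2, where the brightest gave 0.99 log2. Aldh3a1, the aldehyde dehydrogenase of the cornea, exceeded 55.0 on no array.

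The mitochondrial enzymes of amino acid breakdown were mostly higher in adult liver, while the enzyme of proline synthesis was lower. Aldh6a1, which acts in valine breakdown, read 104 and 89.8 in 10.5 dpc liver, 291 and 234 in 16.5 dpc liver and 1018 and 1843 in adult liver. It was higher in adult than in embryonic liver by 2.97 ± 0.23 log2 (SE; adjusted p = 6.14e-07) and higher at 16.5 than at 10.5 dpc by 1.44 ± 0.30 log2 (SE; adjusted p = 0.0033). Aldh4a1, which completes proline breakdown, read 129 and 135 in 10.5 dpc liver, 387 and 375 in 16.5 dpc liver and 602 and 534 in adult liver. Its differences were 1.12 ± 0.13 log2 (SE; adjusted p = 2.17e-05) for adult against embryonic liver and 1.53 ± 0.18 log2 (SE; adjusted p = 5.79e-05) for 16.5 against 10.5 dpc, and at 16.5 dpc it stood at 67.1% of its adult level. Without the 10.5 and 12.5 dpc arrays its adult difference was 0.86 log2 and not called. Aldh7a1, of lysine breakdown, read 978 and 1185 in adult liver against a lowest, median and highest of 389, 475 and 622 in embryonic liver, a difference of 1.15 ± 0.085 log2 (SE; adjusted p = 4.19e-07).

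Aldh18a1, which makes the proline precursor from glutamate, read 217 and 211 in adult liver against 502, 573 and 712 in embryonic liver. Both adult arrays lay below every embryonic array, and it fell in adult liver, with a difference of -1.44 ± 0.12 log2 (SE; adjusted p = 1.1e-06). Of its 5 probe sets, another was called lower, at -2.72 ± 0.097 log2 (SE; adjusted p = 1.67e-09), and the other 3 gave -0.22 to -0.85 log2 and were not called. Aldh5a1, of GABA breakdown, differed by 0.51 ± 0.15 log2 (SE; adjusted p = 0.0112) and Aldh9a1, of carnitine synthesis, by 0.55 ± 0.13 log2 (SE; adjusted p = 0.00355), both under the size needed for a call.

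Of the folate enzymes, Aldh1l1 rose in liver with development and Aldh1l2 passed the filter only with the rest of the embryo. Aldh1l1, which oxidises formyl-tetrahydrofolate in the cytosol, read 22.3 and 26.8, 40.1 and 39.9, 76.0 and 45.0, 123 and 128, 213 and 198, and 176 and 140.3 from 10.5 to 16.5 dpc and 1184 and 1801 in adult liver. It was higher at 16.5 than at 10.5 dpc by 2.61 ± 0.26 log2 (SE; adjusted p = 1.99e-05) and higher in adult than in embryonic liver by 4.21 ± 0.20 log2 (SE; adjusted p = 1.22e-08). At 16.5 dpc it stood at 10.6% of its adult level. Its dimmer second probe set gave 0.22 log2 between 16.5 and 10.5 dpc, not called, and 1.46 log2 for adult against embryonic liver. Aldh1l2, the mitochondrial counterpart, reached at most 68.0 on any liver array and read 141, 231, 200.3 and 410.1 in the rest of the embryo.

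On their brightest probe sets the aldose and aldehyde reductases were not called in any of the liver comparisons. None of the 5 was called between 16.5 and 10.5 dpc, 3 of them with an unadjusted p under 0.05 in limma, and none between adult and embryonic liver, 2 of them with an unadjusted p under 0.05. Over all 14127 genes, 6147 and 9745 were under 0.05 in these 2 comparisons. Akr1a1, the aldehyde reductase that also serves vitamin C synthesis in mice, read 1981 and 4468 in adult liver against a lowest, median and highest of 3149, 3635 and 4876 in embryonic liver. These differed by -0.29 ± 0.23 log2 (SE; adjusted p = 0.283). Akr7a5, the aflatoxin aldehyde reductase, differed by 0.72 ± 0.100 log2 (SE; adjusted p = 6.85e-05), but its other 2 probe sets were called higher in adult liver, by 1.62 and 1.91 log2. Akr1e1, which reduces a glycogen breakdown sugar, differed by 0.45 ± 0.22 log2 (SE; adjusted p = 0.102), Akr1b8 by -0.23 ± 0.11 log2 (SE; adjusted p = 0.088) and Akr1b10 by -0.54 ± 0.19 log2 (SE; adjusted p = 0.0275). Akr1b8 and Akr1b10 are close relatives of aldose reductase. A second probe set of Akr1e1 was called higher in adult than in 16.5 dpc liver, at 1.04 log2. Between 16.5 and 10.5 dpc it gave -0.52 log2, not called, where the brightest gave 0.62 log2.

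The comparison of embryonic liver with the rest of the embryo depended on how the arrays were scaled. As deposited, 3 of 32 tested members were higher and 14 lower in liver, where 14% of all genes were called higher and 51.2% lower, and the median was -0.93 log2 over the members and -1.04 over all 14896 genes. After median centring of each array the calls were 4 higher and 9 lower, with a median of -0.64 over all genes. Of all 14896 genes, 2541 were then called higher and 5382 lower. After quantile normalization the member calls were 7 higher and 5 lower, with a median of -0.14 over all genes. Of all 14896 genes, 2886 were then called higher and 2986 lower. The share of all genes called alike under all 3 scalings is not given here. Under all 3 scalings 3 members were called higher in liver (Akr1c12, Akr1c13 and Aldh8a1) and 5 lower (Aldh1a1, Aldh1l2, Adh1, Aldh1a7 and Akr1c21). The intensity filter set the direction for some of these. Akr1c12 and Aldh8a1 passed it on liver arrays only, and Aldh1a1, Aldh1l2, Akr1c21 and the uncalled Akr1cl on rest-of-embryo arrays only. Among the 26 members with arrays of both tissues above the filter, 1 was higher (Akr1c13) and 11 lower as deposited, against 5.73% and 54.2% of 11737 such genes. The filter needs 2 arrays, and Akr1c13, Aldh1b1 and Aldh1l1 each had only 1 rest-of-embryo array above it. They therefore also depended on their liver arrays to be tested. Differences between tissues are given as deposited, with some also relative to the median gene. The 10 members not tested there were Adh4, Adh6-ps1, Adh6b, Akr1c6, Akr1c14, Akr1c18, Akr1c20, Akr1d1, Aldh3a1 and Aldh3b1.

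Akr1c12, Akr1c13 and Aldh8a1 were higher in embryonic liver than in the rest of the embryo under all 3 scalings. Akr1c12 had a lowest, median and highest of 25.8, 175 and 283 in the 8 liver arrays of matched stages, against 21.4, 7.26, 16.7 and 26.6 in the rest of the embryo by stage. The difference was 2.33 ± 0.38 log2 (SE; adjusted p = 0.000174), and 3.36 above the median gene. Akr1c13 had 31.4, 152 and 299 in liver against 1.10, 1.31, 30.3 and 114 in the rest of the embryo, a difference of 1.78 ± 0.29 log2 (SE; adjusted p = 0.000141) and 2.81 above the median gene. Aldh8a1 had 40.8, 103 and 381 in liver against 49.6, 53.5, 42.6 and 51.7 in the rest of the embryo, a difference of 1.24 ± 0.41 log2 (SE; adjusted p = 0.0144) and 2.28 above the median gene. At 10.5 dpc its liver arrays lay on either side of the rest-of-embryo value, and at the other 3 stages both lay above. The hepatocyte marker sum of the rest of the embryo was 12510 at 14.5 dpc, the stage at which Akr1c13 read 114 there. The part of liver RNA in that value was not tested.

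Aldh1a1, Aldh1a7 and Adh1, read mainly in adult liver among the liver arrays, were higher in the rest of the embryo than in embryonic liver. Aldh1a1 had -42.2, 4.21 and 35.5 in liver against 198, 171, 274 and 503 in the rest of the embryo, a difference of -3.29 ± 0.22 log2 (SE; adjusted p = 1.2e-07) and 2.25 below the median gene. Every rest-of-embryo array lay above every liver array. Aldh1a7 had 41.1, 60.9 and 85.0 against 125, 77.2, 178 and 708, a difference of -1.63 ± 0.48 log2 (SE; adjusted p = 0.00845), with 1 of the 4 rest-of-embryo values inside the liver range. Adh1 had 42.7, 96.6 and 119.6 against 169.6, 151, 256 and 1619, with no overlap and a difference of -1.89 ± 0.38 log2 (SE; adjusted p = 0.000759). Aldh1l2 had 35.04, 40.4 and 60.5 in liver against the values given above for the rest of the embryo, a difference of -2.42 ± 0.22 log2 (SE; adjusted p = 1.55e-06). Akr1c21 lay at or under the floor on all 8 liver arrays and read 68.3, 34.3, 87.1 and 121 in the rest of the embryo, through which alone it passed the filter. Its level in liver was at least 2.84-fold lower. Aldh1a2 differed by -0.74 ± 0.23 log2 (SE; adjusted p = 0.00977), or 0.29 above the median gene, and was not called under any of the 3 scalings. Its values in the rest of the embryo were 1019, 1539, 1501 and 783.

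The other 9 members called lower as deposited were not called under every scaling. Adh5 (-1.73 log2), Akr1a1 (-1.52), Aldh5a1 (-1.58) and Aldh6a1 (-1.47) were also called lower after median centring but not after quantile normalization. Akr1b8, Akr1e1, Akr7a5, Aldh16a1 and Aldh7a1 lay between -1.03 and -1.09 log2, within 0.051 of the median gene, and were called under neither. After quantile normalization Aldh1b1, Akr1c19, Aldh4a1 and Aldh9a1 were called higher in liver, at 1.46, 1.34, 1.07 and 1.07 log2, and Aldh1b1 also after median centring, at 1.34 log2. Probe sets of Aldh2 gave opposite directions. The brightest Aldh2 probe set gave -0.66 log2 for liver against the rest of the embryo, while 2 others gave 3.23 and 2.27 log2 and were called higher. No direction is therefore given for Aldh2. The 3 probe sets of Aldh1a3 gave 0.20 log2 (the brightest), 0.78 log2 and 2.70 log2, and only the last was called.

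**Figure D5:**
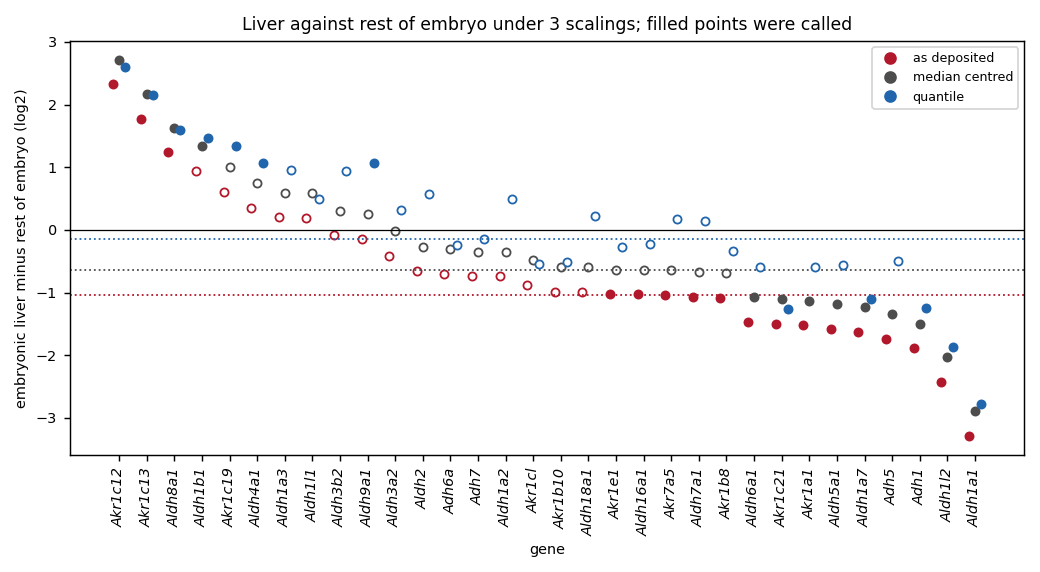
Difference between embryonic liver (8 arrays) and the rest of the embryo (4 arrays) in log2 for the 32 tested genes, as deposited (red), after median centring (grey) and after quantile normalization (blue). Filled points were called, and dotted lines mark the median of all genes under each scaling, at -1.04, -0.64 and -0.14. Akr1c12, Akr1c13 and Aldh8a1 at the left and Aldh1a1 and Aldh1l2 at the right are filled under all 3.

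For 5 of 32 members the tissue difference changed with stage, where a call needed a slope of at least 0.25 log2 per day. For Akr1c12 and Aldh8a1 liver gained on the rest of the embryo, where 5.99% of all genes did, and for Adh1, Aldh1a7 and Aldh1a3 liver lost ground, where 10.1% did. Adh1 read 119.6 and 116 in liver and 1619 in the rest of the embryo at 14.5 dpc, and 112 and 95.8 in liver and 169.6 in the rest of the embryo at 10.5 dpc, a slope of -0.74 ± 0.11 log2 per day (SE; adjusted p = 0.00282). Aldh1a7 read 49.4 and 41.1 in liver and 708 in the rest of the embryo at 14.5 dpc, with a slope of -0.84 ± 0.19 (SE; adjusted p = 0.0157). Aldh1a1, with a slope of -0.33 ± 0.10 (SE; adjusted p = 0.0506), was not called. Aldh8a1 had 381 and 335 in liver and 51.7 in the rest of the embryo at 14.5 dpc, with a slope of 0.69 ± 0.17 (SE; adjusted p = 0.0205). The slopes of Akr1c12 and Aldh1a3 were 0.63 ± 0.17 (SE; adjusted p = 0.0283) and -0.37 ± 0.080 (SE; adjusted p = 0.0118). The calls depended on the 14.5 and 10.5 dpc arrays. Without the 14.5 dpc stage 0 members were called, among 322 of all genes in limma. With only its rest-of-embryo array left out 1 member was called, and with only its first liver array left out 3 were. Over all genes these 2 fits gave 792 and 1759 calls, against 2399 with all arrays. Without the 10.5 dpc rest-of-embryo array 4 members were called, all lower, among 1400 of all genes. Only Adh1 and Aldh1a7 of the 5 were among these 4. Akr1c12 and Aldh1a3 were also not called without the 10.5 dpc stage, nor Akr1c12 without the 12.5 dpc stage. The kidney and gut marker sum of the rest of the embryo was 821 at 14.5 dpc and 573 to 752 at the earlier stages. The mesenchyme sum there was 37290 at 14.5 dpc and 12310 to 21240 earlier, and their part in these slopes was not tested.

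Partner genes of the same pathways were read beside the members. Beside their counts stand the shares of all genes, 10.4% higher and 6.98% lower between 16.5 and 10.5 dpc, and 11.9% higher and 23.7% lower in adult liver (8.24% and 25.1% of genes that passed on embryonic arrays). An unadjusted p under 0.05 in limma was reached by 6147 of 14127 genes between 16.5 and 10.5 dpc. In adult against embryonic liver it was reached by 9745. Of 26 tested genes of retinoid handling, 4 rose and 4 fell between 16.5 and 10.5 dpc. The cellular retinoic acid binding proteins fell most, mainly between 10.5 and 11.5 dpc. At 10.5 dpc Crabp1 read 410.4 and 349. The 11.5 dpc arrays read 46.0 and 48.9 for it, and those of 16.5 dpc, both under the floor, 14.4 and 1.01. The difference between 16.5 and 10.5 dpc was -3.93 ± 0.25 log2 (SE; adjusted p = 1.06e-06), a lower bound on the fall, and -3.62 ± 0.19 log2 (SE; adjusted p = 4.47e-07) for Crabp2. The neural marker sum was 996 to 1047 at 16.5 dpc and 2453 to 2500 at 10.5 dpc, and the mesenchyme and heart muscle sums moved the same way. Their part in these values was not tested. Both were also lower in embryonic liver than in the rest of the embryo, with differences of -5.73 ± 0.37 log2 (SE; adjusted p = 1.1e-07) for Crabp1 and -4.51 ± 0.21 log2 (SE; adjusted p = 1.25e-08) for Crabp2. In adult liver 8 of the 26 were higher and 2 lower than in embryonic liver, 4 of the 8 having passed the filter only through the adult arrays. Rdh7, a retinol and hydroxysteroid dehydrogenase, read 2100 and 4138 in adult liver and 40.2 and 28.7 at 16.5 dpc, a difference from all embryonic stages of 6.81 ± 0.21 log2 (SE; adjusted p = 5.57e-10). Rdh9, of the same family, read 695 and 725 in adult liver and was under the floor on all 12 embryonic liver arrays. Rdh7 and Rdh9 were both among the 4 that passed only through the adult arrays, and so had to be higher there. In liver against the rest of the embryo, as deposited here and for the lists below, 5 of 24 were higher and 11 lower, beside the background shares given above.

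Of 27 tested genes of steroid and bile acid metabolism, 19 were higher and 1 lower in adult than in embryonic liver. Of the 19, 9 passed the filter only through the adult arrays and so had to be higher, and among the 18 that passed on embryonic arrays 10 were higher and 1 lower. Hsd11b1, which regenerates active glucocorticoid, read 2419 and 4346 in adult liver and 61.9 and 96.1 at 16.5 dpc, a difference from all embryonic stages of 6.27 ± 0.27 log2 (SE; adjusted p = 7.3e-09). Cyp27a1, a sterol 27-hydroxylase of bile acid synthesis, differed by 5.07 ± 0.14 log2 (SE; adjusted p = 1.99e-10). Hsd11b1 and Cyp27a1 were both among the 9 that had to be higher in adult liver. Between 16.5 and 10.5 dpc 6 of the 27 rose and 1 fell. Hsd17b2, which oxidises sex steroids, read 443 and 419.9 at 16.5 dpc and 66.4 and 12.02 at 10.5 dpc, a difference of 3.41 ± 0.39 log2 (SE; adjusted p = 5.51e-05). Hsd11b2, which inactivates glucocorticoid, fell to 33.6 and 91.9 at 16.5 dpc, against 711 and 749.5 at 10.5 dpc, a difference of -3.72 ± 0.43 log2 (SE; adjusted p = 5.92e-05). In liver against the rest of the embryo 3 of 22 were higher and 9 lower. Cyp11a1 differed by 2.73 ± 0.33 log2 (SE; adjusted p = 1.47e-05) and Cyp27a1 by -2.87 ± 0.19 log2 (SE; adjusted p = 1.11e-07). The filter set both directions, since Cyp11a1 passed it on liver arrays only and Cyp27a1 on rest-of-embryo arrays only. Of all genes that passed on liver arrays only, 82.5% were called higher. Of those that passed on rest-of-embryo arrays only, 86.6% were called lower.

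Of 17 tested genes of alcohol and aldehyde disposal outside the 3 families, 9 were higher and 2 lower in adult than in embryonic liver, 3 of the 9 having passed the filter only through the adult arrays. Cyp2e1, the ethanol-oxidising cytochrome, read 5294 and 6985 in adult liver and 79.1 and 93.2 at 16.5 dpc, a difference from all embryonic stages of 6.54 ± 0.13 log2 (SE; adjusted p = 2.68e-11). Aox3, an aldehyde oxidase, read 453 and 469 in adult liver and was under the floor on all 12 embryonic liver arrays. It was among the 3 that passed the filter only through the adult arrays. Between 16.5 and 10.5 dpc 6 rose and 0 fell, with 9 at an unadjusted p under 0.05. Acss1, the mitochondrial acetyl-CoA synthetase, read 102 and 108 in 10.5 dpc liver, 606 and 538 in 16.5 dpc liver and 5.45 and 12.6 in adult liver, where both arrays lay under the floor, with a difference of 2.45 ± 0.14 log2 (SE; adjusted p = 6.37e-07) between 16.5 and 10.5 dpc. Hagh, a glyoxalase, differed by 2.12 ± 0.15 log2 (SE; adjusted p = 1.87e-06). In liver against the rest of the embryo 11 of 13 had an unadjusted p under 0.05 in limma. So did 12859 of all 14896 genes. Of the 13, 0 were called higher and 8 lower. Examples were Gsta4 at -2.20 ± 0.13 log2 (SE; adjusted p = 4.9e-08) and Cbr1 at -1.87 ± 0.14 log2 (SE; adjusted p = 3.08e-07).

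Of 17 tested genes around the mitochondrial Aldh enzymes, 14 were higher and 0 lower in adult than in embryonic liver, with 16 at an unadjusted p under 0.05. Bbox1, the last enzyme of carnitine synthesis, differed by 3.10 ± 0.27 log2 (SE; adjusted p = 1.79e-06) and Dmgdh, of choline breakdown, by 2.77 ± 0.17 log2 (SE; adjusted p = 1.26e-07). Between 16.5 and 10.5 dpc 7 rose and 0 fell, with 11 at an unadjusted p under 0.05. Prodh2, a hydroxyproline dehydrogenase under the floor on both 10.5 dpc arrays, differed by at least 2.74 ± 0.21 log2 (SE; adjusted p = 3.95e-06) and Aass, the first enzyme of lysine breakdown, by 1.80 ± 0.17 log2 (SE; adjusted p = 1.69e-05). In liver against the rest of the embryo 1 of 18 was higher and 9 lower, led by the GABA-synthesising Gad1 at -3.47 ± 0.30 log2 (SE; adjusted p = 8.74e-07), a bound since all 8 liver arrays lay under the floor, and Gad2 at -3.31 ± 0.22 log2 (SE; adjusted p = 1.13e-07). Gad1 and Gad2 passed the filter on rest-of-embryo arrays only, and so had to be lower in liver. The neural marker sum was 1085 to 2500 in embryonic liver at the 4 matched stages and 18850 to 24040 in the rest of the embryo. Its part in the Gad1 and Gad2 values was not tested.

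Of 13 tested genes of the folate cycle around Aldh1l1, 3 were higher and 5 lower in adult than in embryonic liver. Gnmt, the glycine methyltransferase, read 3361 and 5428 in adult liver and 222 and 186 at 16.5 dpc, a difference from all embryonic stages of 5.76 ± 0.22 log2 (SE; adjusted p = 3.16e-09). Mthfd1l, which makes formate in mitochondria, fell to 49.6 and 48.3 in adult liver, against 486 and 531 at 16.5 dpc, with a difference from all embryonic stages of -3.21 ± 0.087 log2 (SE; adjusted p = 2.06e-10). Between 16.5 and 10.5 dpc 5 rose and 0 fell, with 7 at an unadjusted p under 0.05. The largest differences were those of Ftcd, of histidine breakdown, at 3.08 ± 0.26 log2 (SE; adjusted p = 7.34e-06) and Gnmt at 3.03 ± 0.29 log2 (SE; adjusted p = 1.73e-05), a lower bound since both 10.5 dpc arrays lay under the floor. In liver against the rest of the embryo 2 of 13 were higher and 2 lower, with Mthfd2l at -3.20 ± 0.16 log2 (SE; adjusted p = 1.83e-08) and Gnmt at -3.14 ± 0.39 log2 (SE; adjusted p = 1.82e-05).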

How the data were processed

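The authors deposited 1 table of linear probe set intensity values for all 18 arrays. The summarising and scaling method was not given in the sources used here. Biotin-labelled cRNA was hybridised, per the labels' protocols. Groups were taken from the source names, since the age entry of liver samples from 11.5 dpc on repeats 10.5 dpc and samples of the rest of the embryo have liver in their titles. Every value column was matched to a sample.

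Of 45101 probe sets, 64 were controls, 34945 had 1 gene symbol, 932 several and 9160 none. Intensities were floored at 24.8, taken to log2 and tested with limma 3.58.1 in R 4.3.3 (lmFit, eBayes with trend, two-sided, Benjamini-Hochberg over all genes of a fit). The 14 liver arrays formed 1 fit of 7 groups with 7 residual degrees of freedom. The 12 arrays of the 4 matched stages gave the tissue difference with stage as a factor, and its slope with dpc. The fits were first checked on simulated data. The number of arrays limits the precision.

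The members, role groups and pathway lists were chosen with earlier results of these data known. Each member is named, with full statistics for the 3 largest called differences per family, all Aldh1a, Akr1c and Akr1d1 genes and up to 2 called genes per pathway list. Other floors, filters, scalings, probe set rules, fits and left-out arrays were tried.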

Additional observations from a re-analysis of the deposited data

Results flagged for a closer look

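For 5 of 32 tested members the difference between liver and the rest of the embryo changed with stage, by the test of that change itself in limma. Over all 14896 genes 2399 were called, 5.99% with liver gaining and 10.1% with liver losing ground. The member count was thus close to the share of all genes. The change per day was -0.74 ± 0.11 log2 (SE; adjusted p = 0.00282) for Adh1, -0.84 ± 0.19 log2 (SE; adjusted p = 0.0157) for Aldh1a7 and -0.37 ± 0.080 log2 (SE; adjusted p = 0.0118) for Aldh1a3, so that liver lost ground to the rest of the embryo. It was 0.63 ± 0.17 log2 (SE; adjusted p = 0.0283) for Akr1c12 and 0.69 ± 0.17 log2 (SE; adjusted p = 0.0205) for Aldh8a1, so that liver gained. Each stage had 1 rest-of-embryo array, and without the 14.5 dpc stage 0 of the 5 were called. Without the 10.5 dpc rest-of-embryo array, Adh1 and Aldh1a7 alone of the 5 were called.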

How the results depend on the processing

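Over the single members, values called in neither fit were counted as unchanged, whatever their direction. Uncalled values did change sign, as Aldh1a2 did in liver against the rest of the embryo (-0.74 log2 as deposited, 0.49 after quantile normalization). On this count 3826 alternative values were unchanged, 89 lost a call and 57 gained one. A further 3, with a call in at least 1 of the fits, reversed direction. The 3 were in embryonic liver against the rest of the embryo after quantile normalization, at 0.18 log2 for Akr7a5 (adjusted p = 0.213), 0.14 for Aldh7a1 (adjusted p = 0.26) and 1.07 for Aldh9a1 (adjusted p = 0.000101); that setting moves the median of all genes to -0.14, against -1.04 as deposited. With the 10.5 and 12.5 dpc arrays left out, 7 members were called for 16.5 against 11.5 dpc (11 for 16.5 against 10.5 dpc) and 7 across the remaining stages (16 with all stages). Over all genes the calls were 1221 (against 2457) and 1278 (against 2772). Without the 14.5 dpc stage 0 members had a called slope. With 1 array left out in turn, members called numbered 11 to 15 for 16.5 against 10.5 dpc, 13 to 16 across the stages, 13 to 22 for adult against embryonic liver, 9 to 19 for adult against 16.5 dpc liver, 13 to 19 for liver against the rest of the embryo and 1 to 6 for the slope. The low adult counts come from leaving out adult array 1 (14 and 11) or adult array 2 (13 and 9), when 30 members were tested, since 8 pass the filter only through both adult arrays; a lone array is assumed to vary like the other groups. For the slope, 1 member was called without the 14.5 dpc rest-of-embryo array and 3 without the first 14.5 dpc liver array. Over all genes the slope calls dropped too, to 792 and 1759, against 2399 with all arrays. With the replicate number as a block, 11, 16, 22, 19, 15 and 5 members were called in the 6 comparisons, in the same order, and no count moved by over 1.5 times. The replicate differences of 21 pairs of groups correlated at -0.35 to 0.25, with 5 over 0.1, so the numbers do not pair the samples. Dim genes, with arrays at the floor, have differences that are too small and a precision that cannot be judged.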

Other observations

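Probe sets of Aldh2 gave opposite differences between tissues, and those of Aldh1a3 differed in size. For Aldh2 the brightest probe set had a lowest, median and highest of 717, 921 and 1424 in embryonic liver at the 4 matched stages and 1227, 1196, 1729 and 1984 in the rest of the embryo, while another had 904 and 928 in liver and 69.2 in the rest of the embryo at 14.5 dpc, and 463 and 517 against 73.2 at 10.5 dpc. For Aldh1a3 a dimmer probe set had 247 and 144 in liver and 34.5 in the rest of the embryo at 14.5 dpc, where the brightest had 235 and 264 in liver and 376 in the rest of the embryo. The tissue differences of its 3 probe sets were all positive, at 0.20, 0.78 and 2.70 log2. Which probe set follows the gene was not tested.

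The pseudogene Adh6-ps1 read at most 26.5 on any array, and Adh6b read 46.1 and 51.9 in adult liver, a lowest, median and highest of 47.5, 60.3 and 72.7 in embryonic liver and 24.6, 28.6, 18.4 and 40.2 in the rest of the embryo.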
